A study of Homo sapiens with 12 samples.

Results

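UBD and 9 genes of the NF-kB pathway were followed through erlotinib treatment of PC9 cells, a human cell line from a lung adenocarcinoma whose growth is driven by a mutant EGFR. The 10 genes, of 62754 in the table, were UBD, C15orf48, the subunit genes RELA, RELB, NFKB1 and NFKB2, the IkB family genes NFKBIA and NFKBIZ, TNFAIP3 and BIRC3. The selection used measured values: UBD was chosen by its CPM level after 7 days of drug, and C15orf48 had already stood out in earlier results of these data, so both are described without a test in the erlotinib comparisons. The other 8 were taken by pathway name, but with earlier results of these data known, so their direction is not independent evidence. Their tests are given with the share of all genes called in the same comparison. All 10 passed the filter on low counts.

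RNA libraries in 4 groups of 3 were compared, each from a subclonal PC9 line. TDP1 wild-type cells were sampled without drug (untreated WT), at day 7 of 1 µM erlotinib (DTC, for drug-tolerant cells) and at day 28 of the same dose (DTEC, for drug-tolerant expanded cells). The KO group came from 1 knockout line, TDP1 KO2, and was also left without drug. Erlotinib inhibits the EGFR kinase, and TDP1 is an enzyme that releases proteins trapped on DNA ends. Per the labels, the replicate cultures of a group were split from one flask and then grown apart, so p-values measure the spread between such cultures. All 12 libraries belonged to 1 batch in the labels.

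NF-kB is a family of dimeric transcription factors. In resting cells the dimers are held in the cytoplasm by IkB proteins, and the IKK kinase complex frees them after signals such as TNF, interleukin 1 or Toll-like receptor ligands. Dimers that contain RELA act in the canonical branch, while RELB with the processed product of NFKB2 acts in the non-canonical branch, which runs through the kinase NIK, encoded by MAP3K14. Several targets of NF-kB, among them NFKBIA and TNFAIP3, encode its own inhibitors, which closes a feedback loop. NFKBIA encodes IkB alpha, NFKBIZ encodes the nuclear IkB zeta, TNFAIP3 encodes the ubiquitin-editing enzyme A20, and BIRC3 encodes the ubiquitin ligase cIAP2. UBD encodes FAT10, a ubiquitin-like protein that is conjugated to other proteins and directs them to the proteasome, and is known to be induced by TNF together with interferon gamma. C15orf48 encodes a small mitochondrial protein that can take the place of the cytochrome c oxidase subunit NDUFA4, and it is known as an inflammation-induced gene.

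Most of the promoters that could be searched hold letters of the NF-kB consensus. RefSeq promoters (GRCh38.p14) were present for 8 of the 10 members, with 13 promoters in all, and the 250 bases before each start were searched on both strands for the 10-base NF-kB consensus. A match lay upstream of 7 of the 8 members and in 9 of the 13 promoters, against 5.21% of 35116 promoters of the same length. RELA was the member without a match. Upstream here means before the RefSeq start, and some of the windows printed below lie in exons of the GENCODE 29 annotation. All 30 bases do so for UBD and TNFAIP3, 21 for NFKB1, 11 for NFKB2, and 0 for NFKBIA, NFKBIZ and BIRC3. The windows below hold 30 bases each, written 5′ to 3′ on the gene's strand with the NF-kB match in capitals, and are shown because these members are the ones whose levels are compared. A match describes the letters and is not a measured binding site.
UBD, chr6:29559766-29559795, minus strand, match from -53 to -44: aatccaggcaGGGGATTTCCaactcaactc
NFKBIA, chr14:35404811-35404840, minus strand, match from -81 to -72: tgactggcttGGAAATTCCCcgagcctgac
NFKBIZ, chr3:101827757-101827786, plus strand, match from -223 to -214: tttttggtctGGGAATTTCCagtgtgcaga
NFKB1, chr4:102501300-102501329, plus strand, match from -49 to -40: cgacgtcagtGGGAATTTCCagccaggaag
NFKB2, chr10:102395674-102395703, plus strand, match from -21 to -12: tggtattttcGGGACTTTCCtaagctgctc
TNFAIP3, chr6:137867188-137867217, plus strand, matches from -67 to -58 and from -55 to -46: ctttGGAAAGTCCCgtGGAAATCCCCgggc
BIRC3, chr11:102317275-102317304, plus strand, match from -199 to -190: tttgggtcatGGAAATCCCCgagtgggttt
BIRC3, chr11:102317339-102317368, plus strand, match from -135 to -126: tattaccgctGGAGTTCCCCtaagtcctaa

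NFKBIZ and NFKB1 carry the same 10 letters in their windows. TNFAIP3 and BIRC3 each have a pair of matches, and the downstream match of TNFAIP3 has the letters of the upstream match of BIRC3. NFKB2 has matches in 2 of its 3 promoters, and in one of them 2 matches overlap, shifted by 1 base. The core of the interferon-stimulated response element (GAAA on both sides of a gap of 2 bases) was found in 3.02% of all promoters and the STAT-binding core TTCNNNGAA in 6.57%. Among the 8 members each of these cores was found upstream of 1 gene, RELA, at -237 to -228 and at -106 to -98. C15orf48 and RELB were not among the promoters searched.

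Library totals ran from 25572691 to 38373679 estimated counts. Levels are given as CPM, the usual depth-scaled read count, here on TMM-scaled library totals, with ± for the standard deviation over 3 libraries. In these bulk samples, a change in the share of cells that express a gene and a change in RNA per cell cannot be told apart. Within groups the libraries correlated at r from 0.972 to 0.990 on log2 CPM, and DTC replicate 1 had the lowest mean r with its own group, 0.975. TDP1 was at 25.1 to 28.1 CPM in the 3 untreated WT libraries and at 10.1 to 11.3 CPM in the 3 KO libraries, a log2 fold change of -1.29 (edgeR quasi-likelihood adjusted p 1.3e-05), so the label of the line goes with lower TDP1 RNA. In DTC, TDP1 was at 12.7 to 15.7 CPM.

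UBD (ENSG00000213886, chromosome 6, 29555515 to 29559925, minus strand, GRCh38) was abundant only at 7 days among the 4 groups. It stood at 108, 217 and 173 CPM in the 3 DTC libraries, with a mean of 166 ± 54.9 (SD, n = 3). These values rest on 3197, 7378 and 5916 counts. In the 3 untreated WT and the 3 KO libraries its count was 0, where a count of 0 allows a level of up to 0.0824 to 0.115 CPM across the 12 libraries, counting 3 counts per library as the floor. Against that floor DTC was at least 1798-fold higher than untreated WT and at least 1748-fold higher than KO. This floor and the bounds from it cover counting error only.

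After 28 days UBD was nearly gone but still present. The 3 DTEC libraries held 31, 8 and 16 counts, or 0.944, 0.306 and 0.440 CPM, with a mean of 0.563 ± 0.337. That is 0.339% of the DTC mean, and the lowest DTC library was 114-fold above the highest DTEC library. DTEC was nevertheless at least 6.09-fold above untreated WT, and each DTEC library exceeded the untreated WT floor. The order of the levels was therefore DTC, then DTEC, then untreated WT and KO, which were both at 0 and cannot be ordered.

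**Figure D1:**
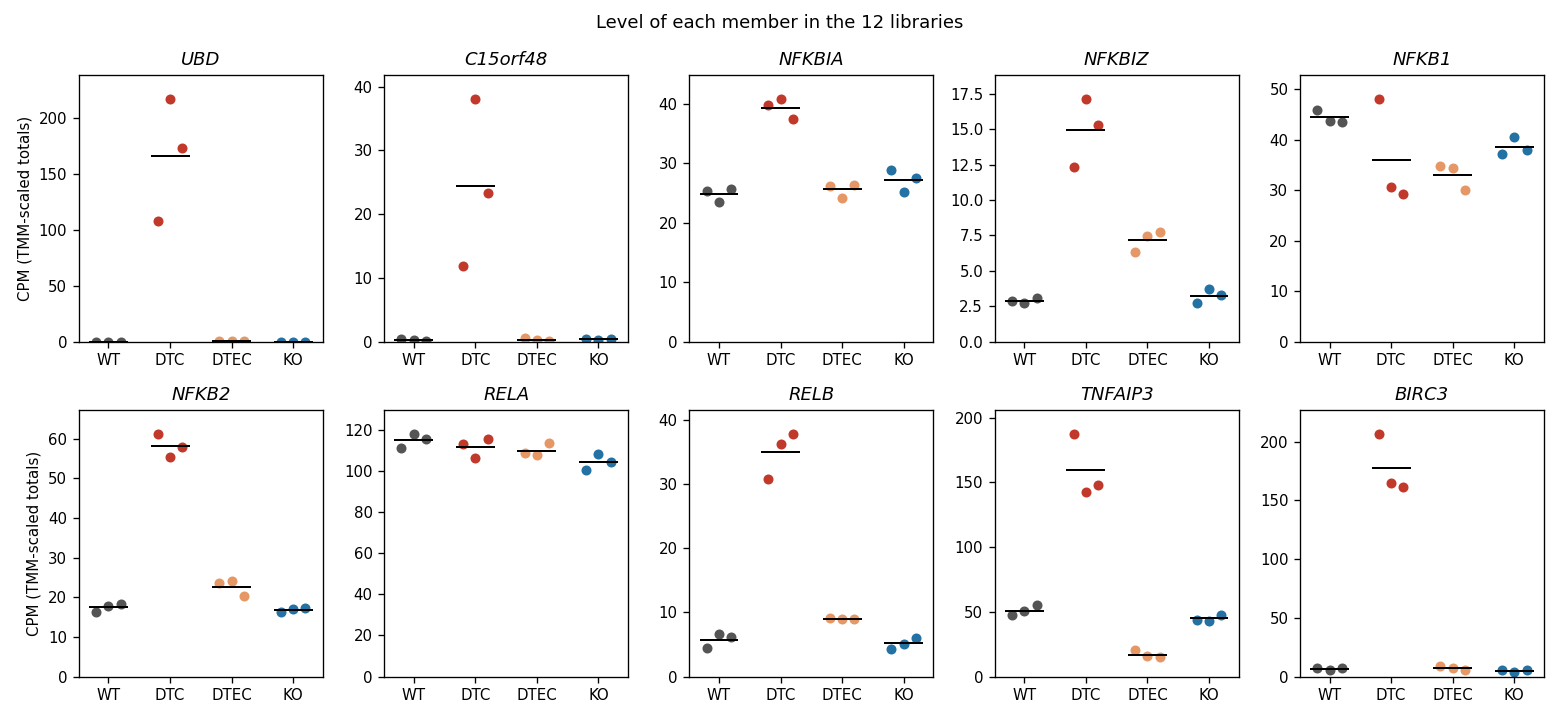
Level of each of the 10 genes in every library, in CPM on linear axes that start at 0; each point is 1 library and each bar is the mean of 3. The 3 DTC points stand above all others for UBD, C15orf48, NFKBIA, NFKBIZ, NFKB2, RELB, TNFAIP3 and BIRC3, the TNFAIP3 points of DTEC lie below untreated WT, and the RELA points stay between 100 and 118 CPM.

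UBD lies on the same strand as GABBR1 (chromosome 6, 29555629 to 29633976), which encodes a GABA-B receptor subunit, and the annotated genes overlap. In DTC replicate 2 the deposited values were 7378.06 for UBD and 637.94 for GABBR1, which sum to 8016. Each gene had that single value that was not whole, so the estimate shared reads between them in that library. GABBR1 rose from 6.03 ± 0.736 CPM in untreated WT to 14.4 ± 3.93 in DTC (log2 fold change 1.26, SE 0.192, edgeR quasi-likelihood adjusted p 4.48e-05). Whether reads of UBD contribute to the GABBR1 value in the other libraries was not tested.

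C15orf48 (ENSG00000166920, chromosome 15, 45430529 to 45448761, plus strand) followed the same course from a low base. It was at 11.8, 38.1 and 23.3 CPM in DTC, a mean of 24.4 ± 13.2 (SD, n = 3), against 0.388, 0.304 and 0.144 CPM in untreated WT. In DTEC it was at 0.548, 0.344 and 0.0824 CPM and in KO at 0.386, 0.324 and 0.498 CPM. The 3 DTC libraries stood apart from the other 9, while untreated WT, DTEC and KO overlapped. The fitted DTC level was 87.0-fold that of untreated WT and 76.1-fold that of DTEC. NDUFA4 encodes the subunit whose place the C15orf48 protein can take. It was at 99.2 ± 4.89 CPM in untreated WT and 147 ± 75.8 in DTC, a difference that was not called (log2 fold change 0.57, edgeR adjusted p 0.0875). NDUFA4 was lower in DTEC than in DTC (-1.27, adjusted p 0.0023). NDUFA4L2, a related gene, did not pass the filter on low counts.

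Of the 8 members taken by pathway name, 6 rose at 7 days and 0 fell, in a comparison where 67.3% of 17115 genes were called, 34.0% higher and 33.3% lower. They were BIRC3, RELB, NFKBIZ, NFKB2, TNFAIP3 and NFKBIA. RELA and NFKB1 were not called. The median log2 fold change of the 8 was 1.69, and that of all genes tested was 0.06. The 3 DTC libraries lay above the 3 untreated WT libraries for all 6 genes that rose, while groups without overlap were seen for 68.9% of genes.

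**Figure D2:**
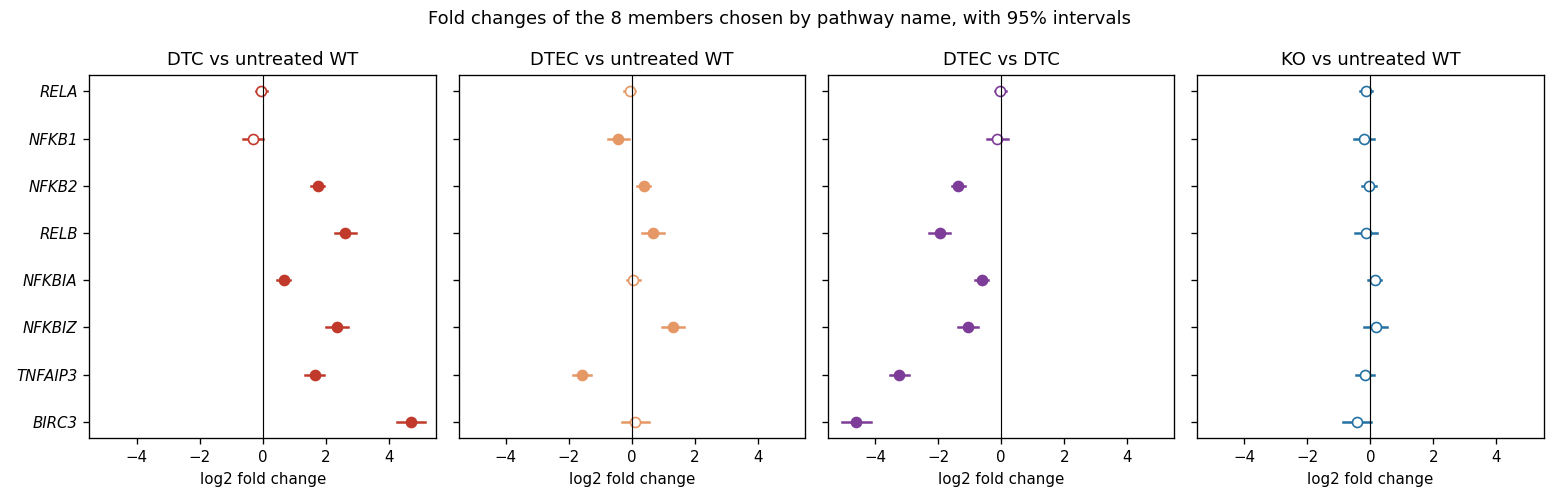
Log2 fold change (x axis) of the 8 members taken by pathway name in the 4 comparisons, with 95% intervals; filled points were called at an adjusted p under 0.05 and open points were not. DTC against untreated WT ranges from -0.30 for NFKB1 to 4.70 for BIRC3, and every KO interval includes 0.

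Among the subunits, the genes of the non-canonical branch rose. RELB (ENSG00000104856, chromosome 19, 45001430 to 45038198, plus strand) was at 4.39, 6.54 and 6.09 CPM in untreated WT and at 30.7, 36.2 and 37.8 CPM in DTC. The rise was 6.16-fold (log2 2.62, SE 0.159, edgeR adjusted p 4.83e-09). NFKB2 (ENSG00000077150, chromosome 10, 102394110 to 102402529, plus strand), which encodes p100 and its processed product p52, was at 16.3, 17.7 and 18.3 CPM in untreated WT and at 61.2, 55.4 and 58.0 CPM in DTC. That is 3.34-fold higher (log2 fold change 1.74, SE 0.0994, edgeR adjusted p 2.87e-09). For both genes the gap between the groups was several times the spread within them.

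RELA (ENSG00000173039, chromosome 11, 65653596 to 65663094, minus strand), the transactivating subunit of the canonical branch, stayed near one level. It was at 111, 118 and 116 CPM in untreated WT and at 113, 107 and 116 CPM in DTC, and the groups overlapped. The log2 fold change was -0.04, with a 95% interval of -0.22 to 0.13 and an adjusted p of 0.667 in edgeR's quasi-likelihood test. This value depends on the scaling, since it became 0.25 (adjusted p 0.0129) with upper-quartile scaling and 0.31 (adjusted p 0.00374) with total counts alone, under which the median of all genes moved from 0.06 to 0.34 and 0.41.

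NFKB1 (ENSG00000109320, chromosome 4, 102501329 to 102617302, plus strand) encodes p105 and its product p50. It was at 45.8, 43.8 and 43.6 CPM in untreated WT and at 48.1, 30.7 and 29.4 CPM in DTC. DTC replicate 1 lay above all 3 untreated WT libraries and the other 2 lay below them. With all libraries the log2 fold change was -0.30 (SE 0.153, edgeR adjusted p 0.0926). Without DTC replicate 1 it was -0.53 and was called (adjusted p 8.09e-05), and with total counts alone it was 0.05. NFKB1 was also called when the replicate number was added to the fit as a block.

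Per length of exon, RELA was the most abundant of the 5 subunit genes in every group, and the order beneath it changed at 7 days. In untreated WT the mean levels were 21.0 CPM per kilobase for RELA, 7.10 for NFKB1, 3.89 for NFKB2, 1.87 for RELB and 1.17 for REL, the c-Rel gene. In DTC they were 20.4 for RELA, 12.98 for NFKB2, 11.5 for RELB, 5.76 for NFKB1 and 1.80 for REL. NFKB2 and RELB, which overlapped in DTC with ranges of 12.4 to 13.7 and 10.1 to 12.4 CPM per kilobase, had both moved above NFKB1. As shares of the summed level per length, RELA went from 60.0% ± 0.427 to 39.0% ± 1.14, RELB from 5.31% ± 0.907 to 21.99% ± 3.03, and NFKB2 from 11.1% ± 0.339 to 24.7% ± 0.220. These shares are of RNA and say nothing of protein or of processing of p100 and p105.

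**Figure D3:**
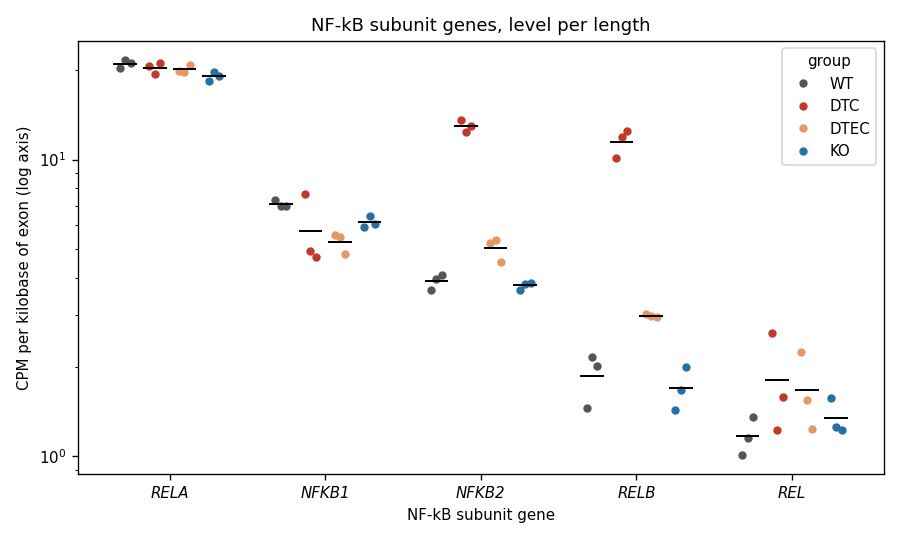
Level per length of the 5 NF-kB subunit genes in CPM per kilobase of exon on a log axis; points are libraries, bars are means of 3, and colours are the groups. RELB and NFKB2 in DTC sit above 10 CPM per kilobase, while their other groups sit between 1.4 and 5.4.

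The IkB family genes NFKBIA and NFKBIZ rose by different amounts. NFKBIA (ENSG00000100906, chromosome 14, 35401511 to 35404749, minus strand) was at 25.4, 23.5 and 25.6 CPM in untreated WT and at 39.8, 40.8 and 37.4 CPM in DTC, a 1.58-fold difference (log2 fold change 0.66, SE 0.0935, edgeR adjusted p 2.09e-05). NFKBIZ (ENSG00000144802, chromosome 3, 101827991 to 101861022, plus strand) was at 2.90, 2.73 and 3.06 CPM in untreated WT and at 12.4, 17.1 and 15.3 CPM in DTC, a 5.15-fold difference (2.36, SE 0.164, edgeR adjusted p 1.72e-08). NFKBIA, the gene of the classical cytoplasmic inhibitor, thus had the smallest rise of the 6 members that were called. NFKBIZ, the gene of the nuclear IkB zeta, had one of the larger rises.

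TNFAIP3 (ENSG00000118503, chromosome 6, 137867188 to 137883312, plus strand), which encodes A20, was at 47.2, 50.6 and 55.1 CPM in untreated WT. It was at 187, 143 and 148 CPM in DTC, 3.13-fold higher (log2 fold change 1.65, SE 0.134, edgeR adjusted p 8.67e-08). All 3 DTC libraries lay above 140 CPM and all 3 untreated WT libraries below 56.

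BIRC3 (ENSG00000023445, chromosome 11, 102317450 to 102339403, plus strand) had the largest fold change of the 8. It was at 7.65, 5.56 and 7.18 CPM in untreated WT and at 207, 164 and 161 CPM in DTC, a 26.0-fold difference (log2 fold change 4.70, SE 0.211, edgeR adjusted p 4.60e-10). Its close relative BIRC2, the gene of cIAP1, rose from 45.1 to 132 CPM, a log2 fold change of 1.55 (SE 0.0994, edgeR adjusted p 8.34e-09). The ligases of these genes restrain NIK in resting cells and support signalling from the TNF receptor. The NIK gene MAP3K14 was at 137, 170 and 161 CPM in untreated WT and at 120, 94.7 and 113 CPM in DTC, and it fell (-0.52, SE 0.136, edgeR adjusted p 0.00388). The MAP3K14 call was lost with upper-quartile scaling (adjusted p 0.143) and with total counts alone (0.312).

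After 28 days in the drug the members no longer moved as a group. Of the 8 taken by pathway name, 3 were above untreated WT (NFKBIZ, RELB and NFKB2), 2 were below it (TNFAIP3 and NFKB1) and 3 were not called, in a comparison where 52.3% of genes were called, 26.0% higher and 26.3% lower. Groups did not overlap for 62.4% of genes. The median log2 fold change of the 8 was 0.08, against 0.02 over all genes.

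NFKBIZ had the largest fold above untreated WT of these 8. It was at 6.33, 7.49 and 7.78 CPM in DTEC, 2.48-fold above untreated WT (log2 fold change 1.31, SE 0.164, edgeR adjusted p 1.42e-05), and the groups did not overlap. RELB was at 9.17, 8.98 and 8.93 CPM, 1.59-fold above untreated WT (0.67, SE 0.157, edgeR adjusted p 0.00252). NFKB2 was at 23.5, 24.0 and 20.3 CPM, also above it (0.37, SE 0.0984, edgeR adjusted p 0.00544). For these 3 genes the order of levels was DTC, DTEC, then untreated WT with KO, and untreated WT and KO overlapped.

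TNFAIP3 crossed its starting level. The DTEC libraries were at 20.3, 15.7 and 14.9 CPM, 33.4% of the untreated WT level (log2 fold change -1.58, SE 0.137, edgeR adjusted p 4.89e-07). The highest DTEC library was below the lowest untreated WT library, at 20.3 against 47.2 CPM. TNFAIP3 was thus highest in DTC, intermediate in untreated WT and KO, which did overlap (47.2 to 55.1 and 43.1 to 47.8 CPM), and lowest in DTEC. Among the 8 members tested by name it was the one that was called higher at 7 days and lower at 28 days.

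BIRC3 and NFKBIA were back in the range of untreated cells. BIRC3 was at 9.29, 7.68 and 5.17 CPM in DTEC, with a log2 fold change of 0.11 and a 95% interval of -0.32 to 0.54 (edgeR adjusted p 0.665). NFKBIA was at 26.3, 24.2 and 26.4 CPM, with 0.05 and an interval of -0.15 to 0.25 (edgeR adjusted p 0.705). RELA was at 109, 108 and 114 CPM, with -0.06 and an interval of -0.24 to 0.11 (edgeR adjusted p 0.539). Intervals of this width leave room for small differences in either direction.

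NFKB1 was lower in DTEC, at 34.7, 34.4 and 29.95 CPM, and the groups did not overlap (log2 fold change -0.43, SE 0.153, edgeR adjusted p 0.0297). The call was lost, with adjusted p from 0.0516 to 0.167, under upper-quartile scaling, with total counts alone, and when any 1 untreated WT library, any 1 DTEC library or KO replicate 2 was left out.

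Set directly against each other, DTEC was lower than DTC for 6 of the 8 members and higher for 0, where 55.4% of genes were called, 28.8% higher and 26.6% lower. The largest fall was that of BIRC3 (log2 fold change -4.59, edgeR adjusted p 1.21e-09), followed by TNFAIP3 (-3.23, edgeR adjusted p 6.82e-10). RELB fell by 1.95, NFKB2 by 1.37, NFKBIZ by 1.05 and NFKBIA by 0.62 on the log2 scale, with edgeR adjusted p from 6.64e-08 to 7.33e-05. In all 6 the DTEC libraries lay below the DTC libraries, and groups without overlap were seen for 56.7% of genes. RELA (-0.02) and NFKB1 (-0.12) were not called. The median of the 8 was -1.21, against -0.01 over all genes. The erlotinib comparisons share libraries, so they are not independent of each other.

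In the TDP1 knockout line 0 of the 8 members taken by pathway name were called against untreated WT, where 4.31% of genes were called. In edgeR's quasi-likelihood test 0 of them had an unadjusted p under 0.05, and DESeq2 gave 0 calls and, over all 10 members, 1 with an unadjusted p under 0.05. UBD had 0 counts in all 6 libraries of this comparison and could not be called. C15orf48 had a log2 fold change of 0.55 with a 95% interval of -1.02 to 2.12, so its few counts leave a wide range, and it was not called. BIRC3 had the lowest value, -0.43 (interval -0.86 to 0.01, edgeR adjusted p 0.318), at 5.62, 4.18 and 5.42 CPM in KO.

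The other members were measured more closely in KO. RELA was at 100, 108 and 104 CPM, below all 3 untreated WT libraries, with -0.14 and an interval of -0.32 to 0.04 (edgeR adjusted p 0.426); groups did not overlap for 35.7% of genes in this comparison. NFKB1 was at 37.1, 40.5 and 38.1 CPM, also below all 3 untreated WT libraries, with -0.20 (interval -0.53 to 0.12). TNFAIP3 had -0.18 (interval -0.47 to 0.10). RELB had -0.13, NFKB2 -0.05, NFKBIA 0.13 and NFKBIZ 0.17, with edgeR adjusted p from 0.532 to 0.863. For each of the 6 members that rose at 7 days, the KO interval ended below its own 7-day log2 fold change. These 6 were picked by that rise, and both comparisons use the same untreated WT libraries, so no conclusion is drawn from this.

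The rest of the pathway was read from gene lists written from general knowledge, with earlier results of these data known. Among 9 other NF-kB, IkB and IKK genes, 2 rose and 4 fell at 7 days, so the number called was near the share over all genes (67.3%). The risers were NFKBIE, the gene of IkB epsilon (10.9 ± 1.38 to 21.8 ± 1.06 CPM, log2 fold change 1.01, edgeR adjusted p 8.72e-06), and BCL3, a nuclear IkB protein (14.9 ± 1.95 to 25.4 ± 5.74 CPM, 0.77, edgeR adjusted p 0.000611). The 4 that fell were CHUK, the gene of IKK alpha (-0.83), NFKBIB, the gene of IkB beta (-0.75), MAP3K14 (-0.52) and IKBKB, the gene of IKK beta (-0.31). REL (0.62, edgeR adjusted p 0.0526), NFKBID (0.26) and IKBKG (-0.15) were not called. With total counts alone 4 of these genes were called higher and 1 lower, and IKBKB had a log2 fold change of 0.05. The IKBKB call was also lost without untreated WT replicate 1 or 2, DTC replicate 2 or 3, or KO replicate 2 or 3 (adjusted p 0.0521 to 0.19).

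At 28 days 2 of these 9 were above untreated WT and 5 below, beside 26.0% and 26.3% of all genes. MAP3K14 was at 49.8, 63.4 and 71.5 CPM (-1.34, edgeR adjusted p 2.49e-06), which is below the levels at 7 days. NFKBIE had gone from a rise to a fall (-0.60, edgeR adjusted p 0.00181). CHUK stayed low (-0.82), NFKBIB was at -0.96 and IKBKG at -0.51. IKBKB was above untreated WT (0.44, edgeR adjusted p 0.00283) and BCL3 also (0.43, edgeR adjusted p 0.0346). The BCL3 call was lost without untreated WT replicate 1, DTEC replicate 1 or DTEC replicate 3 (adjusted p 0.0671 to 0.116). In KO 0 of the 9 were called.

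Upstream of IKK, 12 of 31 receptor, adaptor and kinase genes rose at 7 days and 11 fell, close to the shares over all genes (34.0% higher and 33.3% lower). Of those that rose, 1 was at or under the floor of 3 counts in untreated WT, so only a rise could be called for it. TRAF1, an adaptor of TNF receptors, was at 0.209, 0.438 and 0.144 CPM in untreated WT and at 51.7, 39.4 and 44.4 CPM in DTC (log2 fold change 7.44, SE 0.424, edgeR adjusted p 7.36e-09). TLR2, a receptor for bacterial lipopeptides, rose from 3.26 to 18.1 CPM (2.47, edgeR adjusted p 4.07e-07). CARD10, a scaffold that links receptors to the BCL10 and MALT1 proteins, fell from 153 to 52.5 CPM (-1.55), and IRAK1, a kinase of the interleukin 1 receptor, from 623 to 215 CPM (-1.53). The list's median was 0.08, beside 0.06 for all genes. At 28 days 9 were higher and 11 lower, beside 26.0% and 26.3% of all genes.

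Other negative regulators of the pathway were called higher in 6 and lower in 3 of the 14 that could be tested at 7 days, of 15 in the list. Over all genes 34.0% were called higher and 33.3% lower, so the number called was near that share. CYLD, a deubiquitinase, rose from 18.8 to 58.1 CPM (log2 fold change 1.63, edgeR adjusted p 4.22e-07), and TNIP1, the A20-binding protein, from 102 to 247 CPM (1.28, edgeR adjusted p 1.87e-07). The ubiquitin ligase gene ITCH fell from 176 to 80.7 CPM (-1.12, edgeR adjusted p 1.52e-05). SIGIRR, a damping receptor of the interleukin 1 family, fell by 0.53 on the log2 scale, a call that was lost under 11 alternatives, among them those without untreated WT replicate 2 or 3, DTC replicate 1 or 3, DTEC replicate 2 or any 1 KO library (adjusted p 0.0534 to 0.17). In DTEC, TNIP1 (0.16) and ITCH (0.17) were not called and CYLD stayed higher (0.59, edgeR adjusted p 0.00507). At 28 days 2 of the list were higher and 2 lower, beside 26.0% and 26.3% of all genes.

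Known NF-kB targets moved upward at 7 days. Of 33 in the list 29 could be tested, 25 rose and 1 fell, where 34.0% of all genes were called higher and 33.3% lower, and the median log2 fold change was 2.23, beside 0.06 over all genes. Of the 29, 5 were at or under the counting floor in untreated WT and passed the filter through other groups. For these 5 only a rise could be called at 7 days, so they add nothing to the count of risers as evidence. IL32, which encodes an inflammatory cytokine, went from 0.834 ± 0.155 to 210 ± 29.1 CPM (7.96, SE 0.268, edgeR adjusted p 4.91e-11). VCAM1, an adhesion molecule, was at 0 in all untreated WT libraries and at 5.52 ± 0.403 CPM in DTC, at least 59.7-fold above the floor. The gene that fell was BCL2L1, which encodes the survival protein BCL-XL (205 to 101 CPM, -1.02, edgeR adjusted p 2.84e-07). At 28 days 16 were higher and 3 lower, with a median of 0.87, beside 26.0% and 26.3% of all genes. IL32 was then at 5.01 ± 1.46 CPM (2.58, edgeR adjusted p 3.15e-06).

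Because UBD is known to answer interferon gamma, genes of that response were counted as well. At 7 days 16 of 19 tested rose and 1 fell, beside 34.0% and 33.3% of all genes, with a median log2 fold change of 1.75 against 0.06 over all genes. In untreated WT 2 of the 19 were at or under the counting floor, so only a rise could be called for them at 7 days. CXCL11, a chemokine, reached 14.2 ± 6.41 CPM, at least 153-fold above the floor of untreated WT, and GBP4, a guanylate-binding protein, went from 0.132 to 6.96 CPM (5.67, edgeR adjusted p 3.12e-09). TAP2, a peptide transporter subunit, fell from 133 to 87.3 CPM (-0.61, edgeR adjusted p 0.000568). At 28 days 10 were higher and 3 lower, beside 26.0% and 26.3% of all genes. The members of both lists were written with earlier results of these data known, so their direction is not independent evidence.

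Genes around FAT10 held both directions. Of 10 genes for its conjugation, binding and relatives, 3 rose and 3 fell at 7 days, beside 34.0% and 33.3% of all genes, with a median of 0.09. UBA6, which encodes the activating enzyme of FAT10, was at 70.1 ± 3.17 CPM in untreated WT and at 52.1 ± 6.71 in DTC (log2 fold change -0.43, edgeR adjusted p 0.00471). PSMD4, a ubiquitin receptor of the proteasome, fell by 0.45 and HDAC6, a deacetylase that binds FAT10, rose by 0.51. ISG15, another ubiquitin-like modifier, rose from 1.52 to 19.2 CPM (3.66, edgeR adjusted p 1.06e-06) and was at 1.52 CPM in DTEC. SQSTM1, which encodes the autophagy receptor p62, rose from 555 to 716 CPM (0.37, edgeR adjusted p 0.00782) and was at 503 CPM in DTEC, where it was not called against untreated WT. These counts depend on the scaling, since under both upper-quartile scaling and total counts alone 6 were called higher and 0 lower. At 28 days UBA6 was at 70.6 ± 9.73 CPM (0.01).

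Of these lists 3 upstream genes, 1 negative regulator, 7 targets and 2 interferon gamma genes were called in the KO line, where 4.31% of all genes were called. They were IL1R1 (0.55), TNF (3.20), ICAM1 (0.80), LCN2 (0.48), CSF1 (0.36), GBP2 (0.95) and UBE2L6 (0.95), which were higher, and BIRC2 (-0.41), MALT1 (-0.56), IL1A (-2.20), IL1B (-0.81) and PLAU (-0.69), which were lower. TNIP3 was also called lower, but it was near the counting floor in untreated WT and at 0 in KO. TNF in KO was at 0.105 to 0.138 CPM, close to the floor. Of the 29 tested targets 4 were higher and 3 lower in KO, and of the 19 tested interferon gamma genes 2 were higher and 0 lower. The tested targets include VCAM1 and CCL2, which had 0 counts in both groups and could not be called. These counts moved with single libraries. With 1 library left out, the targets called higher ran from 0 (without KO replicate 2) to 6 (without DTC replicate 1), and those called lower from 1 to 3.

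**Figure D4:**
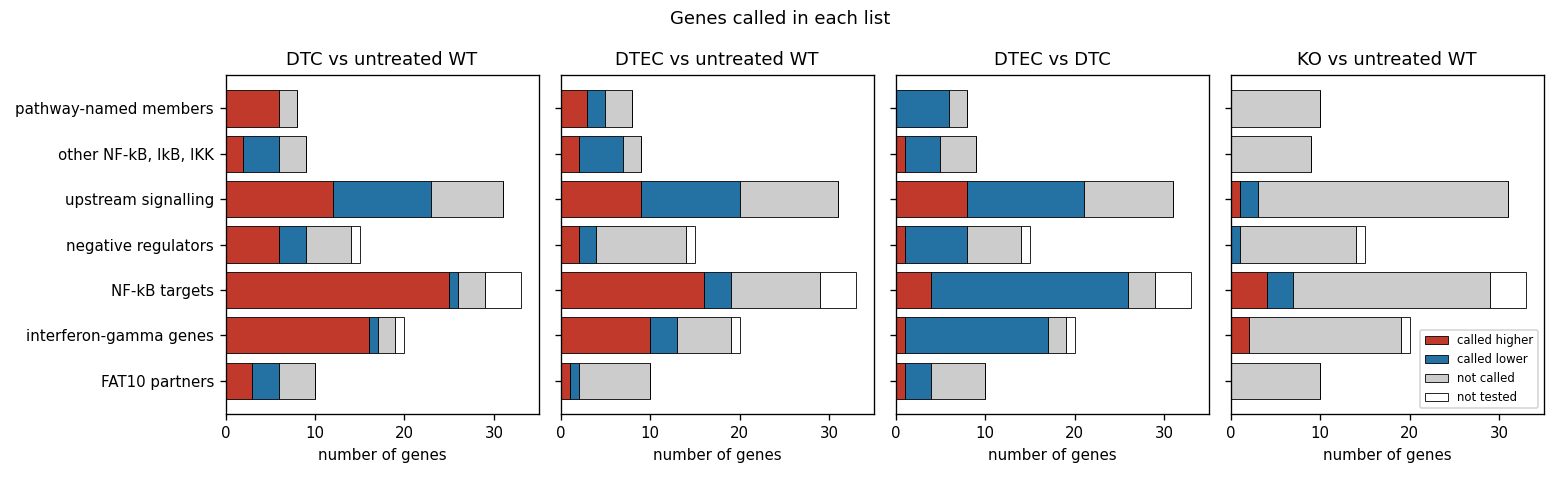
Number of genes called higher (red), called lower (blue), not called (grey) and not tested (white) for the 8 members taken by pathway name (all 10 in KO, UBD without counts among them) and 6 gene lists in the 4 comparisons. NF-kB targets show 25 higher and 1 lower in DTC and 4 higher and 22 lower from DTC to DTEC, while other NF-kB, IkB and IKK genes and upstream genes hold both directions. Of the tested genes, 1 upstream gene, 5 targets and 2 interferon gamma genes were at or under the counting floor in untreated WT.

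From 7 to 28 days, 22 of the 29 tested targets were lower and 4 higher, and 16 of 19 interferon gamma genes were lower and 1 higher, beside 26.6% of all genes lower and 28.8% higher. These counts include the 5 targets and 2 interferon gamma genes at or under the counting floor in untreated WT. For any of them that passed the filter through DTC alone, a fall was given in advance. Among negative regulators 7 fell and 1 rose, and the riser was ITCH (log2 fold change 1.29, edgeR adjusted p 8.25e-06). TRAF1 fell by 5.69 and IL32 by 5.39 on the log2 scale, each remaining above untreated WT at 28 days.

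The genes whose pattern was most like that of UBD over the 12 libraries were IL32 (Pearson r of log2 CPM 0.995), RND1 (0.994), DUSP1 (0.993), ZNF83 (0.993) and GSTM4 (0.992). They were higher in DTC than in DTEC, and higher in DTEC than in untreated WT, with means for GSTM4 of 179, 38.3 and 22.2 CPM. An r above 0.95 with UBD was found for 414 of 13687 genes that averaged 1 CPM or more. The 12 points fall into 4 groups, and r here describes mostly the DTC group against the rest. NFKBIZ was most like SMPDL3A (0.997), CNN1 (0.993) and RRAS (0.992), BIRC3 most like NDEL1 (0.991), STK38L (0.991) and NEGR1 (0.990), and C15orf48 was like MT-RNR2 (0.987) and TRAK2 (0.979). Within the 10 members, UBD had r of 0.989 with NFKB2, 0.987 with RELB and 0.964 with BIRC3, but 0.652 with TNFAIP3, 0.164 with RELA and -0.41 with NFKB1.

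The 3 DTC libraries did not rank the members alike. UBD, C15orf48 and NFKBIZ were lowest in DTC replicate 1 and highest in DTC replicate 2, with a highest-to-lowest ratio of 2.01, 3.22 and 1.38. TNFAIP3, BIRC3, NFKB2 and NFKB1 were highest in DTC replicate 1. A ratio at least that of UBD was seen in 8.08% of 14243 genes that averaged 1 CPM or more in DTC, where the median was 1.34. DTC replicate 1 is also the library with the lowest mean correlation with its group, and its part in these differences was not tested.

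**Figure D5:**
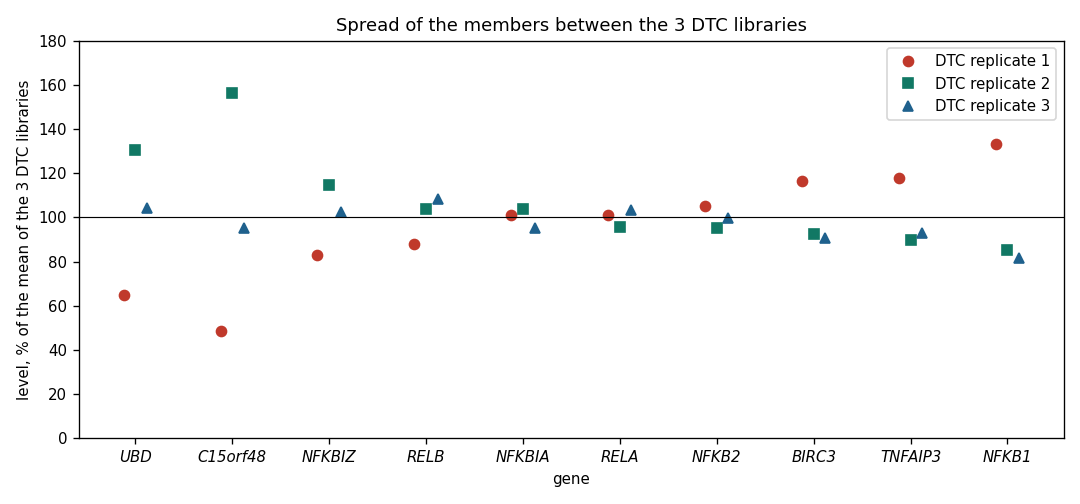
Level of each member in the 3 DTC libraries as a percentage of their mean. Replicate 1 (red circles) is lowest for UBD, C15orf48, NFKBIZ and RELB and highest for NFKB2, BIRC3, TNFAIP3 and NFKB1.

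Markers of cell types were read beside these results. All 5 epithelial markers were detected, with a summed level of 8862 to 9330 CPM in untreated WT, 9542 to 10260 in KO, 4465 to 5022 in DTC and 7480 to 9812 in DTEC. In DTC 4 of the 5 were called lower, beside 33.3% of all genes. KRT8 was at 1869 CPM there against 4015 in untreated WT, and KRT18 at 1184 against 2930. CDH1 was not called, at 298 CPM in DTC against 285 in untreated WT. The 3 lung and alveolar markers were low throughout, with sums of 1.21 to 2.33 CPM in untreated WT, 5.51 to 7.54 in KO, 1.39 to 2.46 in DTC and 12.3 to 17.5 in DTEC. SFTPB made up most of the DTEC sum, at 14.1 CPM against 1.51 in untreated WT (log2 fold change 3.23, edgeR adjusted p 2.62e-07). The similar sums of untreated WT and DTC hide opposite moves. In DTC, SFTPB was lower at 0.0699 CPM. NAPSA was higher there, at 1.62 against 0.127 CPM in untreated WT, and so was NKX2-1, at 0.366 against 0.0312 CPM. The 12 immune cell markers summed to 1.76 to 2.39 CPM in untreated WT, 2.91 to 3.62 in KO, 21.8 to 24.7 in DTC and 3.16 to 5.12 in DTEC. In DTC the sum came mostly from ITGAM, at 10.4 CPM, and CSF1R, at 9.57 CPM. The leukocyte marker PTPRC was at 0.0896 CPM in DTC, near the floor, and CD3D, MS4A1, TYROBP and NKG7 were at 0. The 9 fibroblast and endothelial markers summed to 66.5 to 70.3 CPM in untreated WT, 89.1 to 92.3 in KO, 96.9 to 106 in DTC and 136 to 153 in DTEC. These sums join opposite moves, since COL1A1 was at 8.30 CPM in untreated WT and 55.7 in DTC, while PECAM1 was at 32.0 and 8.77 CPM and at 92.1 CPM in DTEC. The part of these differences in the levels of UBD and the other members was not tested.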

How the data were processed

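RNA was sequenced from 12 cultures of a PC9 line, from polyadenylated RNA with a stranded kit, per the labels' protocols. The deposited table holds the authors' expected counts, estimated read counts per gene that need not be whole and are not scaled to depth. Per the submitters' processing notes, RSEM 1.3.1, Bowtie2 2.5.2, DESeq2 1.40.2 and the build GRCh38 were used, with no roles stated. The annotation release is not given in the sources used here. Coordinates and exon lengths are those of GENCODE 29 for the same gene identifier (92.8% of 62754 matched), and symbols were found for 99.9%. Of the 10 members, 8 had whole values in all 12 libraries and 2 in 11.

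Counts were rounded and fitted in R 4.3.3 with edgeR 4.0.16 (filterByExpr by group, 17115 genes, TMM, 4 group means over all 12 libraries, robust quasi-likelihood F tests). P-values were Benjamini-Hochberg adjusted over the 17115 genes, and genes were called at an adjusted p under 0.05. The common biological coefficient of variation was 14.6%. Totals of 25572691 to 38373679 per library put 3 counts at 0.0824 to 0.115 CPM. Alternatives were DESeq2 1.42.0, 3 other scalings, no filter, only the groups compared, a replicate block, and leaving out each library. The scripts were tested on simulated data.

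The members and lists were chosen with earlier results of these data known. Named were all members, the 9 other NF-kB, IkB and IKK genes, NDUFA4, NDUFA4L2, GABBR1 and TDP1, and from each further list up to 2 rising and 2 falling genes with the largest change in DTC among those called, if they averaged 1 CPM or more in the 12 libraries. Likeness was ranked by Pearson r on log2 CPM (prior count 2). A result of that ranking for C15orf48 is not reported here. BIRC2, SQSTM1, CCL2, the genes called in KO, and the single markers were named after their values were seen.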

Additional observations from a re-analysis of the deposited data

Results flagged for a closer look

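By the direct test of DTEC against DTC, the effect of erlotinib against untreated WT differed between 7 and 28 days for 11 NF-kB pathway genes. These were 6 of the 8 members taken by pathway name and 5 of the 9 other NF-kB, IkB and IKK genes. They are listed because they were called in that comparison, whose calls are also given above. Among the members the log2 fold change at 28 days minus that at 7 days was -4.59 for BIRC3, -3.23 for TNFAIP3, -1.95 for RELB, -1.37 for NFKB2, -1.05 for NFKBIZ and -0.62 for NFKBIA, with edgeR adjusted p from 6.82e-10 to 7.33e-05. Among the other NF-kB, IkB and IKK genes it was -1.60 for NFKBIE, -0.83 for MAP3K14, -0.77 for NFKBID, -0.36 for IKBKG and 0.75 for IKBKB, with edgeR adjusted p from 2.77e-07 to 0.0166. In this comparison 55.4% of all genes were called. TNFAIP3 and NFKBIE were above untreated WT at 7 days and below it at 28 days, and IKBKB had the opposite order.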

How the results depend on the processing

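The number of members called stayed within 1.5 times of its value in each comparison under all alternatives run: 6 to 7 of 8 in DTC, 4 to 5 of 8 in DTEC, 6 to 7 of 8 from DTC to DTEC, and 0 in KO, where UBD had no counts and could not be called. With libraries left out the ranges were 6 to 7, 4 to 5, 6 to 6 and 0 to 0. The main fit did not treat replicate numbers as pairs. After removal of group means, 18 same-number pairs had r from -0.03 to 0.18, 4 of them above 0.1. The 36 pairs with different numbers had r from -0.19 to 0.12. Whether the numbers mark a weak shared structure was not tested. With the replicate block, 7, 5, 6 and 0 members were called, NFKB1 in DTC being the addition. Over all genes the calls went from 11520 to 11775, 8955 to 9255, 9480 to 9732 and 738 to 887. Some values changed sign. Among these, RELA in DTC was called after the change with upper-quartile scaling and with total counts alone, and IKBKB in DTC had been called lower before it. RELA in DTC became 0.0045 with DESeq2, 0.0046 with its size factors in edgeR, 0.25 with upper-quartile scaling, 0.31 with total counts alone, and 0.00025 and 0.0517 without untreated WT replicate 2 and DTC replicate 2 (range with libraries left out -0.0347 to 0.0517). RELA in DTEC became 0.0511 and 0.10 with upper-quartile scaling and total counts. NFKB1 in DTC became 0.0516 with total counts, and from DTC to DTEC 0.12 without DTC replicate 1 (range -0.28 to 0.12). BIRC3 in DTEC became -0.0035 without untreated WT replicate 2 and -0.0785 without DTEC replicate 1. In KO, NFKB2 became 0.0217 with total counts and 0.0096 without untreated WT replicate 3 (range -0.0765 to 0.0096), and RELB 0.000975 without untreated WT replicate 2 (range -0.27 to 0.000975). IKBKB in DTC became 0.0451 with total counts. The cause was not tested.

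Scaling matters for the lists that held both directions. The share of calls in DTC that were higher went from 50.5% to 68.4% with total counts alone and 65.0% with upper-quartile scaling, in DTEC from 49.7% to 63.7% and 59.1%, and from DTC to DTEC from 51.9% to 37.4% and 38.7%. In KO it went from 64.1% to 78.8% with total counts. All genes called in KO numbered 738, 321 without untreated WT replicate 1, 1153 with DESeq2 and 2656 with only the groups compared. Depth limits UBD in untreated WT and KO, and C15orf48 outside DTC, to a few counts.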
